A study of Rattus norvegicus with 174 samples.

Results

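The genes described here are 41 genes of cell division, listed by name, of which 40 were measured among 13438 genes in all. They hold the mitotic cyclins and kinases (9 measured genes), the spindle checkpoint and anaphase regulators (7), the spindle, kinetochore and cytokinesis proteins (11), the proliferation marker Mki67 and the chromosome untangling enzyme Top2a, the replication helicase and clamp (7), and the enzymes of nucleotide supply (4). A gene was measured where the array's platform table had a probe set naming that gene alone; 29 members had 1 such probe set, and for the 11 with several the brightest by mean over all arrays was used. Tpx2, the spindle assembly factor on the list, had no such probe set and is not analysed here. The first 29 genes, from cyclins to Mki67 and Top2a, are called the mitosis genes below, and the last 11 the replication and nucleotide genes.

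The study exposed adult male Sprague-Dawley rats, an outbred stock, by whole-body inhalation to the toxic gas phosphine (PH3) or to air, and measured RNA of 6 tissues on expression microarrays. Exposed rats breathed 660 ppm for 32.2 min, a product of 21252 ppm × min, which the labels give as 0.91 times the median lethal value. The series has 174 arrays from 33 rats, killed 1, 3, 6 or 24 h after exposure, and exposed and air rats were different animals. Each rat gave several tissues, except the exposed rats Rat713, Rat722 and Rat790, which gave blood only. Lung, heart, brain, kidney and liver each have 4 exposed and 4 air rats at every time, except 2 air rats at 6 h. Blood has 4 exposed and 4 air rats at 1 and 3 h, 5 exposed and 1 air rat at 6 h, and 2 exposed rats without air rats at 24 h. All rats were of 1 stock, sex and age class, and no genotype or second agent is named in the labels.

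A dividing cell copies its DNA in S phase and separates the copies in mitosis. The MCM proteins form the ring-shaped helicase that opens DNA at replication origins, Pcna is the clamp that holds the DNA polymerase, and ribonucleotide reductase (Rrm1, Rrm2), thymidylate synthase (Tyms) and thymidine kinase (Tk1) supply the building blocks. Mitosis is driven by Cdk1 with its cyclins, watched by the spindle checkpoint and ended by destruction of the cyclins; in adult lung and heart few cells divide at any time, so these transcripts stand for a minority of cells. Genes of S phase are known to be switched by E2F factors, and many genes of mitosis by a later complex that reads a CHR element, often beside CCAAT boxes bound by NF-Y.

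Those elements differ between the mitosis genes and the replication and nucleotide genes, so the stretches that carry them are shown here. RefSeq's rat promoters (build GRCr8, 250 bases before each gene start) held 34 windows of 32 measured members among 33469 promoters. The letters searched, on both strands, were TTTGAA and TTTAAA for CHR, CCAAT for NF-Y, and TTTCCCGC, TTTGGCGC, TTTCGCGC and TTTGCCGC for E2F; TTTAAA reads the same on both strands, and E2F matches on opposite strands can overlap. The 5 windows below, 3 of mitosis genes and 2 of helicase genes, lie wholly before the annotated gene, are read 5′ to 3′ on the gene's strand, and have matches on either strand in capitals.
Ccnb1 (chr2:33655226-33655375, minus strand): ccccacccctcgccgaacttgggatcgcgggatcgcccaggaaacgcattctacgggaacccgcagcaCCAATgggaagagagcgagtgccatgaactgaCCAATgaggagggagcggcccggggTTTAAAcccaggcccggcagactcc
Cdc20 (chr5:137255800-137255949, minus strand): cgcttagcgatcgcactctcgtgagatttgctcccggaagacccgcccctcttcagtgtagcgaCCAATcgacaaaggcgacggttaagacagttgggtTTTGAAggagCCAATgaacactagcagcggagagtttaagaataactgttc
Top2a (chr10:84473094-84473243, minus strand): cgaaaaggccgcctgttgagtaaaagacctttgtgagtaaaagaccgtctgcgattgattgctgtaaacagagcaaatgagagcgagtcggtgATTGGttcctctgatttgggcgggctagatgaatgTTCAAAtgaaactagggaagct
Mcm5 (chr19:13488583-13488812, plus strand): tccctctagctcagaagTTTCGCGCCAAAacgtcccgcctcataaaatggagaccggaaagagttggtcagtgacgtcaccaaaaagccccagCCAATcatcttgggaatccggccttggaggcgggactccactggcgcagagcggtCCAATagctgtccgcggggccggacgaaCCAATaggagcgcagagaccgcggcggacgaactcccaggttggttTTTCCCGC
Mcm6 (chr13:42404353-42404502, minus strand): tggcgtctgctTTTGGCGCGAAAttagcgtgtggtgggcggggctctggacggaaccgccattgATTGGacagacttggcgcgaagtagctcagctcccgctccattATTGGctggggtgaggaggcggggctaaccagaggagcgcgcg
The CHR letters stood in 21 of 25 windows of mitosis genes (84%) and in 1 of 9 of replication and nucleotide genes (11.1%), against 25.4% of all promoters. The E2F letters had the opposite split, with 1 of 25 (4%, Cdk1) against 5 of 9 (55.6%: Mcm2, Mcm5, Mcm6, Mcm7 and Tyms), and 1.73% of all promoters. CCAAT stood in 20 of 25 windows (80%) and 6 of 9 (66.7%), against 34% of all promoters. A match is a run of letters, not a shown binding site.

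**Figure D1:**
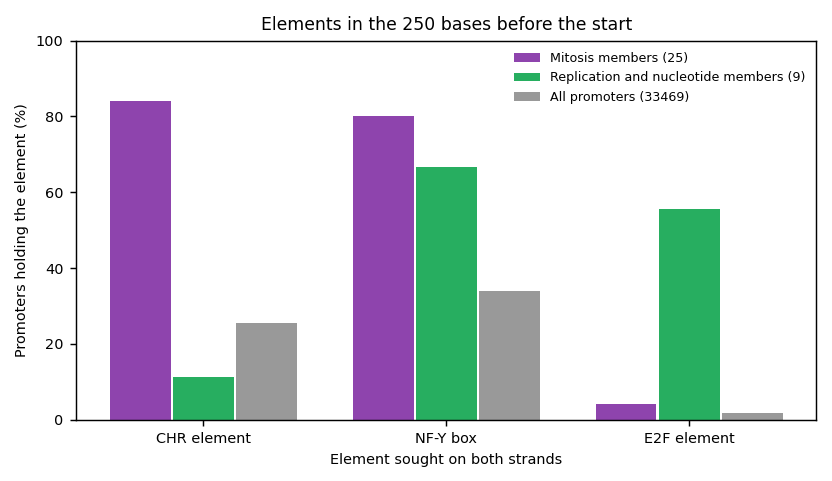
Share of promoter windows (percent, vertical axis from 0) that hold the CHR, NF-Y or E2F letters, as bars for the 25 windows of mitosis genes, the 9 of replication and nucleotide genes and all 33469 promoters. CHR is in 84% of the mitosis windows and 11.1% of the replication and nucleotide windows, and E2F in 4% and 55.6%.

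Signals are given as deposited, on a log2 scale, so that a difference of 1 is a doubling; a difference is the mean of phosphine rats minus the mean of air rats at the same tissue and time, ± its standard error. The median signal over all 31139 probe sets of an array, which is not the median of the 13438 genes, lay between 4.16 and 4.64 in the 6 tissues. Of the arrays, 9 carried transcripts of another organ at least 4 log2 units above the median of their tissue, among them lung arrays of 1 exposed rat at 1 h and of 1 exposed and 1 air rat at 3 h, and none in lung at 24 h. Markers of the labelled organ were present in all arrays, with mean signals of 11.25 to 11.70 for lung epithelium in lung. A gene was called where limma's two-sided moderated test, fitted within a tissue over all groups, gave a Benjamini-Hochberg adjusted p under 0.05 over all 13438 genes.

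In air rats the members differed by tissue. Mki67 had a mean log2 signal of 5.91 ± 0.52 (SD, n = 14) in lung, 5.06 ± 0.74 (SD, n = 14) in heart, 3.01 ± 0.14 (SD, n = 14) in brain and 7.93 ± 1.16 (SD, n = 9) in blood. Pimreg, a mitotic regulator linked to the anaphase machinery, had 4.57 ± 0.64 (SD, n = 14) in lung and 4.59 ± 0.72 (SD, n = 14) in heart, against 2.61 ± 0.18 (SD, n = 14) in brain and 2.77 ± 0.25 (SD, n = 14) in liver. Brain had the lowest median over the members, between 3.40 and 3.81 in its 30 arrays, with no overlap with any other tissue. Whether the tissues were normalized together is not given in the sources used here, so levels across tissues are a description.

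**Figure D2:**
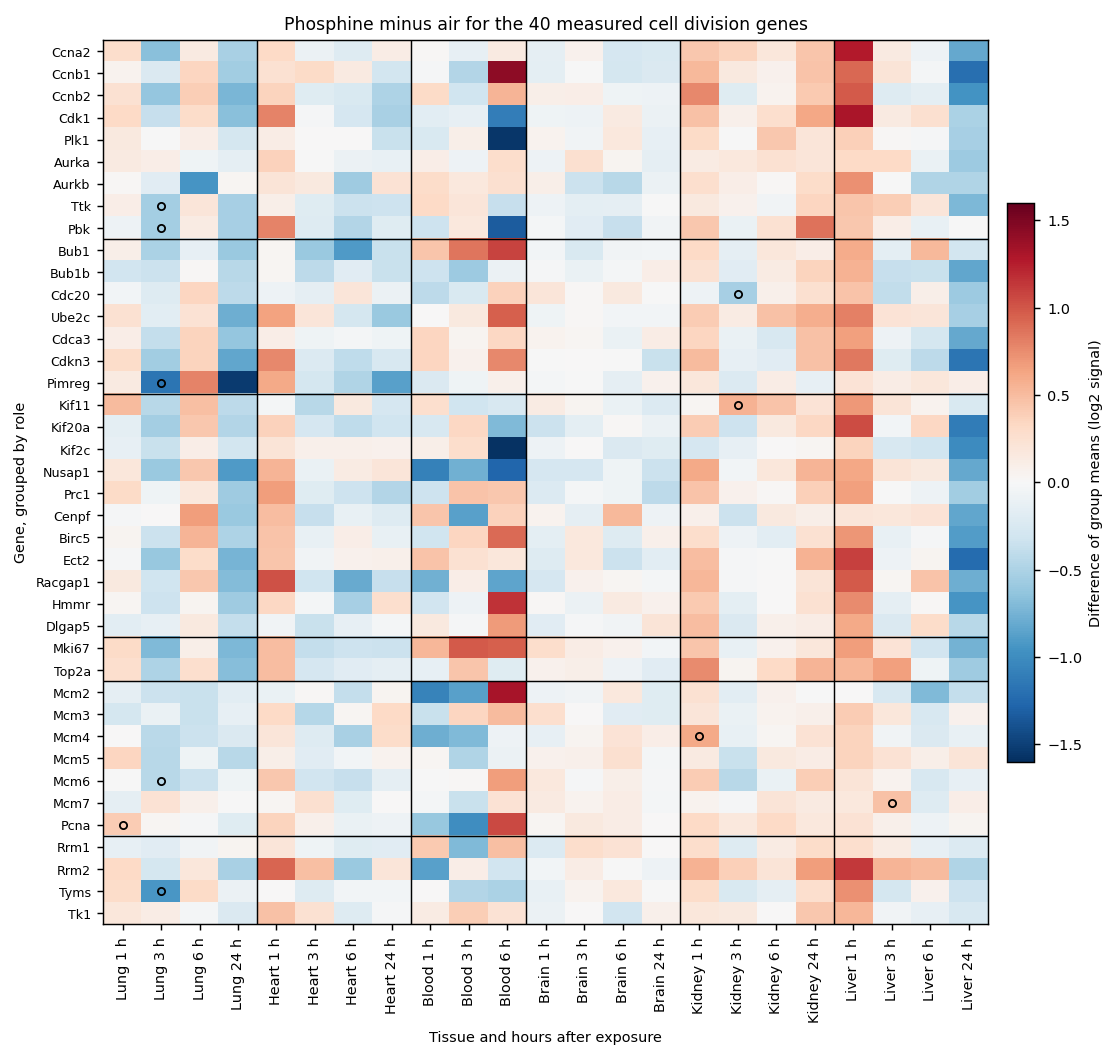
Differences of the 40 members (log2, phosphine minus air; colour scale) in each tissue and time, with members in rows by role and a circle on called members. The columns of lung at 3 and 24 h hold mainly negative differences (35 and 38 of 40 members below 0), and those of heart, kidney and liver at 1 h mainly positive ones (36, 38 and 40 above 0).

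The largest shared difference in lung was at 24 h. There 38 of 40 members lay below 0, with a median of -0.51, against -0.01 over all genes. In 24 members every exposed rat was lower than every air rat, 60 percent of the members, against 1.99% of all genes. limma called 0 members at this time (0.00744% of all genes, which is 1 gene); at an unadjusted p under 0.05, 26 members were lower, against 1.96% of all genes, and none higher. These are whole-tissue arrays, in which fewer dividing cells and less RNA of these genes per cell cannot be told apart.

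Among the checkpoint and anaphase regulators, 6 of 7 had groups that did not overlap at 24 h. Pimreg had log2 signals of 3.32, 3.14, 3.52 and 3.01 in the 4 exposed rats and 4.77, 5.05, 4.64 and 4.66 in the 4 air rats. All exposed rats lay more than 1 unit below the lowest air rat, and the difference of -1.53 ± 0.36 (limma, adjusted p = 0.453) was the largest of any member, a mean at 0.345 times that of air. Ube2c, the ubiquitin-conjugating enzyme that works with the anaphase-promoting complex, had 5.65, 5.62, 5.67 and 5.75 in exposed rats and 6.28, 6.65, 6.37 and 6.52 in air rats. The exposed rats were tightly grouped below the air rats, with a difference of -0.78 ± 0.18 (limma, adjusted p = 0.453). Cdkn3, a phosphatase that acts on cyclin-dependent kinases, had 5.23, 5.25, 5.45 and 5.54 in exposed rats and 6.11, 6.39, 6.27 and 6.02 in air rats, a difference of -0.83 ± 0.25 (limma, adjusted p = 0.890). Cdc20, the activator of the anaphase-promoting complex, had 5.0, 4.71, 4.58 and 4.89 in exposed rats and 5.13, 5.16, 5.10 and 5.45 in air rats. Its groups did not overlap either, and the difference was -0.42 ± 0.13. In Bub1, a checkpoint kinase, 1 air rat at 4.74 fell within the exposed range of 4.52 to 4.80, so this gene alone of the 7 overlapped.

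The spindle, kinetochore and cytokinesis proteins had the same arrangement in 10 of 11 genes. Nusap1, which bundles spindle microtubules, had 5.25, 5.13, 5.32 and 5.04 in exposed rats and 5.91, 6.20, 6.28 and 6.01 in air rats. The groups were apart, with a difference of -0.91 ± 0.22 (limma, adjusted p = 0.453). Birc5, or survivin, of the chromosomal passenger complex, had 3.91, 4.06, 3.97 and 3.92 in exposed rats and 4.47, 4.39, 4.56 and 4.43 in air rats, a difference of -0.50 ± 0.13 (limma, adjusted p = 0.774). Ect2, the exchange factor that sets the cleavage furrow, had 4.67, 4.83, 4.71 and 5.07 in exposed rats and 5.53, 5.54, 5.62 and 5.57 in air rats. Prc1, which cross-links midzone microtubules, had 6.37, 6.18, 6.55 and 6.43 in exposed rats and 6.78, 7.04, 7.02 and 6.99 in air rats. In both, all exposed rats were below all air rats, by -0.74 ± 0.32 and -0.57 ± 0.17. The kinesins Kif11 (-0.41 ± 0.20) and Kif20a (-0.47 ± 0.20) also had groups apart, while the kinesin Kif2c (-0.30 ± 0.14) overlapped through 1 air rat at 3.60.

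Of the mitotic cyclins and kinases, 5 of 9 had groups apart at 24 h. Cdk1, the kinase that starts mitosis, had 5.86, 6.01, 6.07 and 5.97 in exposed rats and 6.61, 6.65, 6.56 and 6.75 in air rats. Its groups were apart, with a difference of -0.66 ± 0.20 (limma, adjusted p = 0.890). Ccnb1, cyclin B1, had 3.96, 4.29, 3.85 and 3.96 in exposed rats and 4.55, 4.62, 4.50 and 4.62 in air rats, a difference of -0.56 ± 0.15 (limma, adjusted p = 0.774). Ccnb2, cyclin B2, had 5.54, 5.31, 5.79 and 5.48 in exposed rats and 6.16, 6.31, 6.23 and 6.36 in air rats, a difference of -0.74 ± 0.23. The kinases Ttk (-0.53 ± 0.15) and Pbk (-0.53 ± 0.17) also did not overlap. Cyclin A2 (Ccna2, -0.51 ± 0.28), the polo kinase Plk1 (-0.28 ± 0.14) and Aurka (-0.15 ± 0.12) overlapped. Aurkb, the kinase of the chromosomal passenger complex, had 5.28, 4.77, 6.03 and 8.02 in exposed rats and 5.31, 5.12, 7.36 and 6.17 in air rats, a spread that no other member had, and a difference of 0.03 ± 0.61.

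Mki67 and Top2a, the pair most used to mark dividing cells, were both apart. Mki67 had 5.15, 5.37, 5.23 and 5.61 in exposed rats and 5.89, 5.96, 6.29 and 6.08 in air rats, a difference of -0.71 ± 0.27 (limma, adjusted p = 1). Top2a had 5.10, 5.26, 5.22 and 5.66 in exposed rats and 5.85, 5.94, 6.13 and 6.03 in air rats, a difference of -0.68 ± 0.26. In both genes the highest exposed rat stayed below the lowest air rat.

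The replication and nucleotide genes had smaller differences at 24 h, mostly of the same sign. Of the 11, 10 lay below 0 and 3 were lower at an unadjusted p under 0.05, against 1.96% of all genes. Only 1 of 11 had groups apart, against 23 of 29 mitosis genes, and their median was -0.17 against -0.57. Rrm2, the regulated subunit of ribonucleotide reductase, was the 1 gene, with 6.56, 6.54, 6.87 and 6.72 in exposed rats and 7.04, 7.14, 7.39 and 7.21 in air rats, a difference of -0.52 ± 0.17. None of the 7 helicase and clamp genes was apart. Mcm3 had 4.46, 4.80, 4.82 and 4.48 in exposed rats and 4.74, 4.76, 4.85 and 4.73 in air rats (-0.13 ± 0.13). Pcna had 9.87, 9.99, 9.71 and 9.87 in exposed rats and 9.92, 10.10, 10.17 and 10.05 in air rats (-0.20 ± 0.09). In both the ranges crossed, as they did for Mcm6 (-0.07 ± 0.11), Mcm7 (-0.01 ± 0.09) and Tyms (-0.10 ± 0.18). The difference between these gene groups was described and not tested, and the genes share the same rats.

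**Figure D3:**
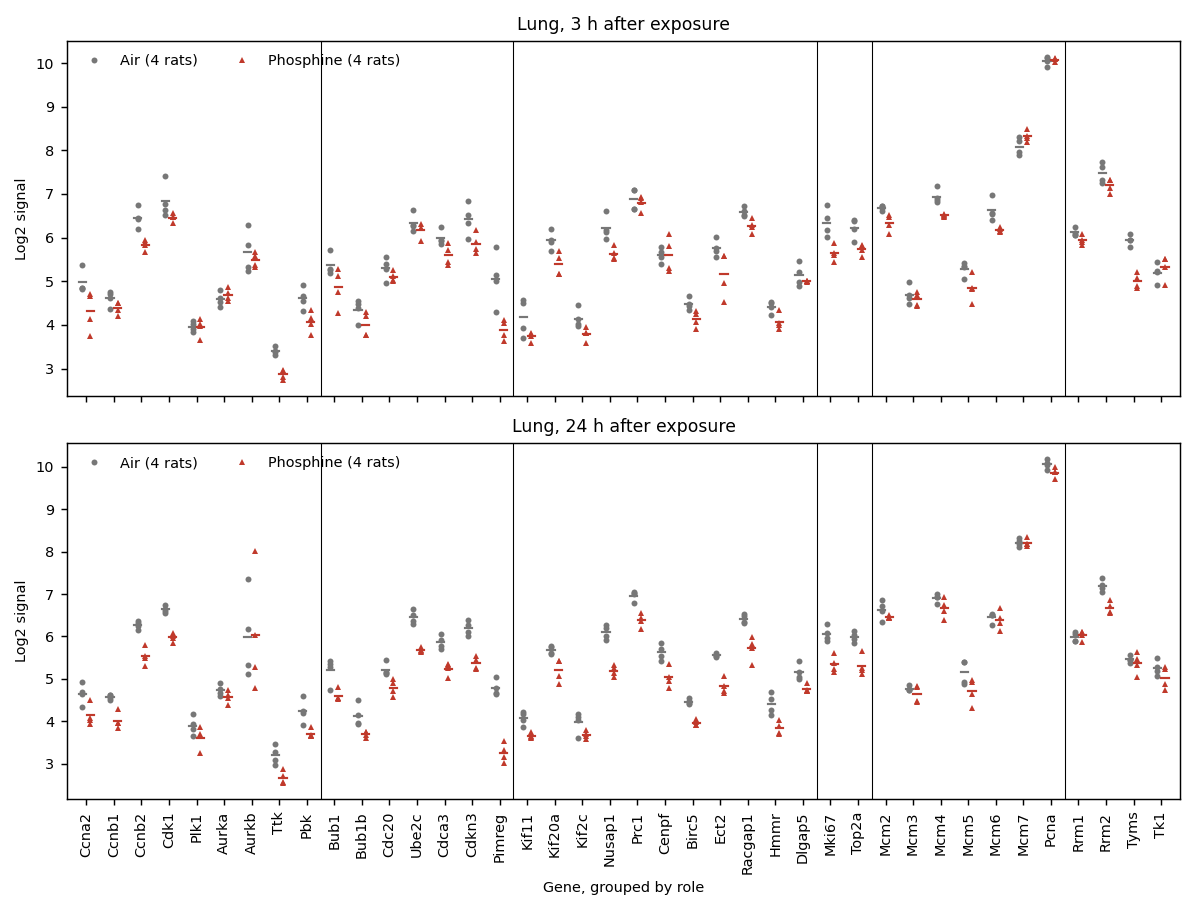
Log2 signal (vertical axis) of the 40 members in every lung at 3 h (upper panel) and 24 h (lower panel), with genes along the horizontal axis by role; each point is 1 rat, air as grey circles and phosphine as red triangles, with a line at the group mean. At 24 h all 4 exposed rats lie below all 4 air rats in 23 of 29 mitosis genes, while those of Mcm3 and Pcna overlap.

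A second view of the 24 h values came from other probe sets and another fit, both on the same lungs. The members were chosen with earlier results of these data known, so neither is independent support. The 11 members with several probe sets had 15 further ones, and all 15 were below 0 in lung at 24 h. When only the 8 lungs of 24 h were fitted, limma called 11 genes of the array lower (0.0819% of all genes), and 8 of the 11 were members: Pimreg (adjusted p = 0.00577), Nusap1, Ube2c and Cdk1 (0.0219 each), Ect2 (0.0309), Cdkn3 (0.0328), and Birc5 and Ccnb2 (0.0490 each). The median spread of a member within a group was 0.156 in exposed and 0.160 in air lungs at 24 h, against 0.362 and 0.347 at 1 h, and the fit over all times uses 1 spread per gene for all of them. Against the air lungs of all times pooled, 0 members had groups apart, a count that added air rats can only keep or lower. The members' median in air lungs ranged from 4.76 to 5.97 over the 4 times.

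At 3 h limma called 5 members lower in lung and none higher, 12.5 percent of the members against 5.76% of all genes (11.6% in either direction). In all, 35 of 40 lay below 0, with a median of -0.35. The groups did not overlap, with phosphine lower, in 15 members, against 9.21% of all genes, and 18 members were lower at an unadjusted p under 0.05, against 12.3% of all genes. At this time the called genes came from both kinds of gene, with 3 mitosis genes and 2 replication and nucleotide genes.

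Tyms, which makes thymidylate for DNA, had the smallest p of the members at 3 h, with 5.22, 5.06, 4.89 and 4.84 in exposed rats and 5.94, 6.09, 5.94 and 5.78 in air rats. All exposed rats lay below all air rats, and Tyms fell by 0.94 ± 0.18 (limma, adjusted p = 7.91e-04), to 0.523 times air. The air groups themselves differed with time for Tyms, with means of 5.02, 5.94, 5.40 and 5.46 at 1, 3, 6 and 24 h (moderated F, adjusted p = 0.0341; 1.67% of all genes in lung), so that the air mean at 3 h was the highest of the 4. Tyms was the only member called in that test, but 23 members had an unadjusted p under 0.05, against 18.3% of all genes. Mcm6, a helicase subunit, had 6.20, 6.12, 6.15 and 6.25 in exposed rats and 6.55, 6.41, 6.56 and 6.98 in air rats. Mcm6 fell by 0.44 ± 0.11 (limma, adjusted p = 0.0102), and its groups were apart. Mcm4, another subunit of the ring, had 6.52, 6.53, 6.48 and 6.50 in exposed rats and 6.86, 6.91, 6.82 and 7.19 in air rats, also apart, with a difference of -0.44 ± 0.15 that was not called (limma, adjusted p = 0.0562). Mcm7 (0.23 ± 0.09) lay above 0 and Pcna (0.03 ± 0.09) near it, so the helicase and clamp genes did not share 1 direction.

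The mitosis genes called at 3 h were Pimreg, Ttk and Pbk. All were dim in lung, with air means at percentiles 33.0, 18.6 and 30.1 of all genes. Pimreg had 3.64, 3.76, 4.12 and 4.04 in exposed rats and 5.16, 4.30, 5.79 and 5.01 in air rats, groups that did not overlap, and fell by 1.17 ± 0.36 (limma, adjusted p = 0.0357). Ttk, the kinase also known as Mps1 that starts the spindle checkpoint, had 2.81, 2.98, 2.74 and 2.95 in exposed rats and 3.32, 3.40, 3.39 and 3.51 in air rats, and fell by 0.54 ± 0.15 (limma, adjusted p = 0.0188). Pbk, a mitotic kinase, had 3.77, 4.02, 4.34 and 4.15 in exposed rats and 4.31, 4.66, 4.55 and 4.92 in air rats, and fell by 0.54 ± 0.17 (limma, adjusted p = 0.0374), with 1 exposed rat above the lowest air rat. Mki67 had 5.43, 5.61, 5.87 and 5.65 in exposed rats and 6.17, 6.02, 6.75 and 6.44 in air rats, apart but not called (-0.70 ± 0.27, limma, adjusted p = 0.0961). The differences of Top2a (-0.49 ± 0.26), Cdk1 (-0.37 ± 0.20), Rrm2 (-0.29 ± 0.17), Ccnb1 (-0.23 ± 0.15) and Mcm3 (-0.11 ± 0.13) did not pass the threshold.

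Single rats and the air comparator bear on the 3 h calls. With 1 rat left out, between 1 and 4 members were called, the lowest count without the air rat Rat739. With 1 rat left out, the count of members with groups apart ran from 15 to 23, the highest without the air rat Rat732. Leaving out rats can only keep or raise this count, and adding air rats can only keep or lower it. It is therefore no check on single rats. Against the pooled air of all times no member was called at 3 h by limma, and 0 had groups apart; Tyms was then at -0.46 (limma, adjusted p = 0.134) and the median member at -0.16. Without the 2 lung arrays of 3 h that carried skeletal muscle transcripts, 4 members were called, Pbk was at -0.51 and not called (limma, adjusted p = 0.127), 21 had groups apart and the median was -0.44. With the rat as a block and 1 spread for all tissues, 2 were called, and Mcm6, Ttk and Pbk were not, at unchanged differences (limma, adjusted p = 0.554, 0.139 and 0.425). In those settings, as in all others run, Tyms, Mcm6, Ttk, Pimreg and Pbk kept negative differences.

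The 3 h and 24 h sets overlapped in part. Of the members, 9 had groups apart and lower at both times, 6 at 3 h alone and 15 at 24 h alone; these comparisons share no rat. Of all genes, 0.253% were apart and lower at both times. The 9 are 60 percent of the 3 h set and 37.5 percent of the 24 h set.

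At 6 h, between these times, the mitosis genes of lung lay on the other side of 0 against the 2 air rats of that time. Of 29 mitosis genes, 26 were above 0, with a median of 0.27, and 6 had all exposed rats above both air rats. The same 6 are 15 percent of the 40 members, against 8.92% of all genes. limma called 0 members at 6 h (0.0967% of all genes); at an unadjusted p under 0.05, 3 were higher and 3 lower, against 4.83% and 3.97% of all genes. Birc5 had 4.62, 4.17, 4.54 and 4.15 in exposed rats and 4.01 and 3.63 in air rats, a difference of 0.55 ± 0.16 (limma, adjusted p = 0.205). Cenpf, a kinetochore protein, had 6.52, 5.34, 5.72 and 5.69 in exposed rats and 4.88 and 5.41 in air rats (0.67 ± 0.29; limma, adjusted p = 0.486). The exposed rat Rat758 was the highest in both, and without it the median over all members was 0.07 in place of 0.16. Against the air lungs of all times pooled, that median was -4.6e-04, with 20 members above and 20 below 0.

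Most helicase and clamp genes lay below 0 at 6 h. Of the 7 genes, 6 were below 0, and Mcm2, Mcm3, Mcm4 and Mcm6 had all exposed rats below both air rats. They were the only members apart and lower, 10 percent of the 40, near the 6.72% of all genes. Mcm6 had 6.20, 6.18, 6.26 and 6.37 in exposed rats and 6.59 and 6.61 in air rats (-0.35 ± 0.14; limma, adjusted p = 0.422). Mcm2 had 6.52, 6.52, 6.43 and 6.21 in exposed rats and 6.94 and 6.60 in air rats (-0.35 ± 0.16). Mcm3 (-0.36 ± 0.16) and Mcm4 (-0.35 ± 0.18) had differences of the same size. In 27 members the difference was negative at 3 h, positive at 6 h and negative at 24 h, and 25 of these were mitosis genes. Each difference at 6 h rests on 2 air rats.

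**Figure D4:**
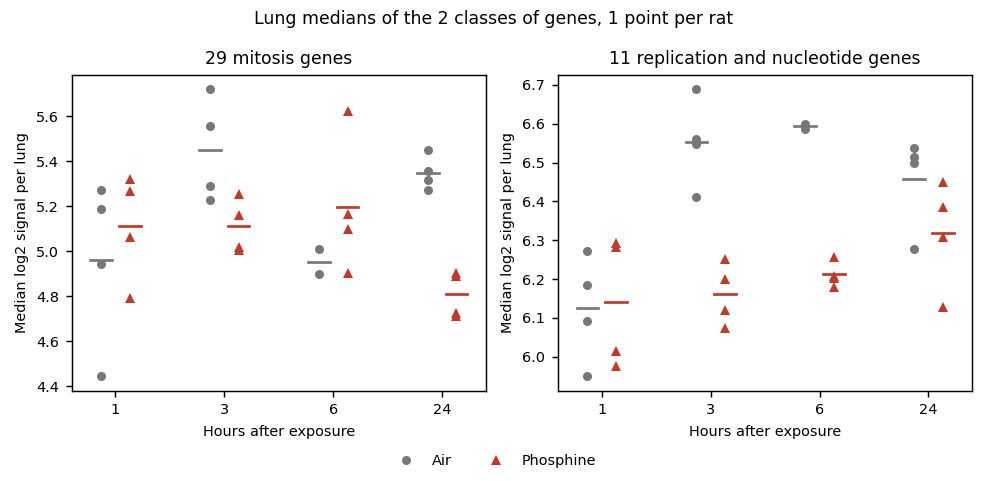
Median log2 signal per lung over the 29 mitosis genes and over the 11 replication and nucleotide genes, by hours after exposure, with 1 point per rat and a line at each group's mean. At 24 h the mitosis medians lie at 4.71 to 4.90 in exposed and 5.27 to 5.45 in air rats; at 6 h the replication and nucleotide medians lie at 6.18 to 6.26 and 6.59 to 6.60.

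At 1 h the only member called in lung was Pcna. It had 10.48, 10.57, 10.20 and 10.39 in exposed rats and 10.12, 9.77, 10.03 and 10.08 in air rats. Every exposed rat lay above every air rat, and Pcna rose by 0.41 ± 0.09 (limma, adjusted p = 0.00492), to 1.33 times air; of all genes, 2.18% were called higher and 5.80% in either direction. Of the helicase genes, Mcm5 was at 0.35 ± 0.16 with overlapping groups (limma, adjusted p = 0.258), Mcm6 at -0.01 ± 0.11 and Mcm3 at -0.28 ± 0.13. Mki67 (0.31 ± 0.27), Top2a (0.27 ± 0.26), Cdk1 (0.32 ± 0.20), Rrm2 (0.32 ± 0.17) and Ccnb1 (0.06 ± 0.15) overlapped between groups, and 27 of 40 members lay above 0. Rat716, an exposed rat whose lung carried liver transcripts, had the lowest Mki67 of its group, 4.90 against 5.51 to 6.20, and without it 2 members were called and the median was 0.25 in place of 0.11. Without the air rats Rat720 and Rat721, Pcna was 0.36 higher and no longer called (limma, adjusted p = 0.0637), as with the rat as a block (0.40; limma, adjusted p = 0.690), and 10 in place of 27 members lay above 0. Against the air lungs of all times pooled, 9 members lay above 0.

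The effect of phosphine differed between the 4 times in lung for 8 members, by a moderated F test (limma), 20 percent of the members against 6.38% of all genes. These were Tyms (adjusted p = 0.00705), Birc5 (0.00820), Pcna (0.0177), Pimreg (0.0217), Nusap1 (0.0230), Ube2c (0.0375), Kif11 (0.0385) and Ttk (0.0414). In heart, brain, kidney and liver the same test called 0 members, against 0.424%, 0.0893%, 1.75% and 0.476% of all genes; at an unadjusted p under 0.05 it gave 8, 1, 7 and 6 members, against 11%, 8.95%, 16.8% and 10.2% of all genes. The lung count ran from 4 to 17 with 1 rat left out. Air groups alone also differed between times by moderated F at an unadjusted p under 0.05. This held for 23 members in lung, 25 in heart, 18 in kidney, 4 in brain and 0 in liver. The shares of all genes were 18.3%, 7.81%, 16.8%, 10.2% and 7.14%. The part of the air groups in these differences was not tested.

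Lung was then compared with the mean effect of the other 4 solid tissues. At 3 h Pimreg was the only member whose lung effect differed, by -1.07 ± 0.30 (limma, adjusted p = 0.0180), against 5.43% of all genes. Without Rat728, Rat732 or Rat738 no member was called. Pimreg was dim in air brain, kidney and liver, at percentiles 6.24, 15.9 and 5.56 of all genes, against 33.0 in lung and 36.7 in heart. A fall has little room to show at such levels, and how far this sets the contrast was not tested. At 24 h the test called 0 members (0.0149% of all genes), 6 had an unadjusted p under 0.05 (2.11% of all genes), and the smallest adjusted p was again that of Pimreg, at -1.33 ± 0.30 (limma, adjusted p = 0.0713). Below 0 lay 37 of 40 members at 24 h, with a median of -0.34. The mean of the other tissues joins opposite signs. Phosphine minus air at 24 h had a median of -0.51 in lung, -0.54 in liver, -0.13 in heart, -0.06 in brain and 0.28 in kidney. At 1 and 6 h the test called 0 members, against 0.982% and 0.0893% of all genes, with 3 and 2 members at an unadjusted p under 0.05, against 8.77% and 6.59% of all genes.

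The wider cell cycle was read from lists of genes outside the members. In lung, 5.76% of all genes were called lower and 5.84% higher at 3 h, and 2.18% higher at 1 h. At 24 h 1.99% of all genes had groups apart and lower, and 1.96% were lower at an unadjusted p under 0.05. The counts of the lists were not tested against these shares. Of 49 measured other mitotic genes, 46 lay below 0 in lung at 24 h, 21 with groups apart and 0 called by limma (21 lower and 0 higher at an unadjusted p under 0.05), with a median of -0.34. At 3 h, 4 of them fell, among them Iqgap3 (-0.87), Aspm (-0.87) and Ncapd2 (-0.60), and 1 rose, the chromokinesin Kif4a (0.77). Of 29 genes of origin licensing and the replication fork, Pola1, a catalytic subunit of DNA polymerase alpha (-0.64), and Pole, that of polymerase epsilon (-0.47), fell at 3 h and none at 24 h, when 26 lay below 0 but 2 had groups apart. Of 19 checkpoint and repair genes, 1 fell at 3 h, the fork protection gene Timeless (-0.89). Of 16 regulators of G1, Ccnd3, cyclin D3, rose at 3 h (0.28), and Cks1b, a small partner of cyclin-dependent kinases, rose at 1 h (0.42; limma, adjusted p = 7.98e-04). At 24 h Cks1b was at -0.39 ± 0.07, not called (limma, adjusted p = 0.147).

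Of 28 measured genes that brake the cycle, 2 rose and 2 fell in lung at 1 h, against 2.18% and 3.62% of all genes. Cdkn1a, the p21 inhibitor of cyclin-dependent kinases, rose by 1.68 ± 0.24 at 1 h (limma, adjusted p = 4.9e-05), with exposed rats at 7.79 to 8.91 and air rats at 6.20 to 6.86. It was still higher at 3 h, by 1.44 ± 0.24 (limma, adjusted p = 2.05e-04), where 4 of the 28 rose, against 5.84% of all genes, and none fell. At 24 h none of the 28 was called, and Cdkn1a was at -0.14 ± 0.24, with overlapping groups. At an unadjusted p under 0.05, 3 of the 28 were lower and 0 higher, against 1.96% and 1.19% of all genes.

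Marker genes of other cell types moved with the lung results at 3 h, when 5.84% of all genes were called higher and 5.76% lower. In that comparison 4 of 6 measured neutrophil markers rose, with log2 summed signals of 10.5 to 11 in exposed and 8.98 to 9.68 in air rats, and 6 of 10 macrophage markers rose while 2 fell. Of the T and NK cell markers 2 of 11 fell, and of the B and plasma cell markers 2 of 7, with summed signals of 8.07 to 8.85 against 8.51 to 9.52. At 24 h limma called 0 genes in any marker list in lung; 11 of 11 T and NK cell markers lay above 0 (10.2 to 10.8 against 10.2 in air) and 6 of 6 neutrophil markers below 0 (8.63 to 9.68 against 9.61 to 10.4). Lung epithelium markers summed to 15.7 to 15.8 against 15.8 to 15.9 at 24 h. The part of these cell types in the members' differences was not tested.

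**Figure D5:**
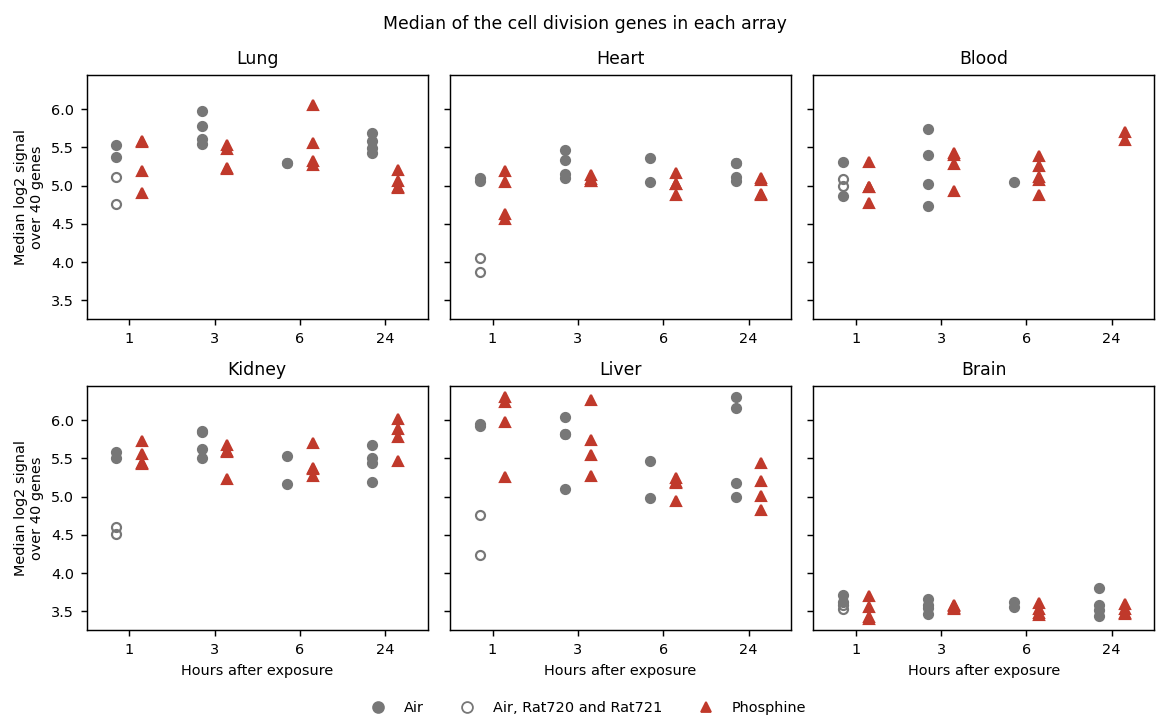
Median log2 signal over the 40 members in every array, by tissue and hours after exposure, phosphine as red triangles and air as grey circles, 1 point per array. The air rats Rat720 and Rat721 at 1 h, drawn as open circles, lie low in heart, kidney and liver (4.05 and 3.87, 4.51 and 4.61, 4.23 and 4.76), and the exposed lungs at 24 h (4.97 to 5.21) lie below the air lungs (5.43 to 5.69).

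In heart 0 members were called by limma at any time, against 1.33%, 3.33%, 0.350% and 0.0819% of all genes at 1, 3, 6 and 24 h. At 1 h 36 of 40 members lay above 0, with a median of 0.34 and 11 higher at an unadjusted p under 0.05, against 6.18% of all genes, but no member had groups apart. Racgap1, the cytokinesis partner of Ect2, had 6.39, 5.83, 5.30 and 5.37 in exposed hearts and 4.04, 3.73, 5.34 and 5.71 in air hearts (1.01 ± 0.32; limma, adjusted p = 0.146). Cdk1 had 6.69, 5.85, 4.92 and 5.30 in exposed hearts and 3.85, 4.27, 5.85 and 5.64 in air hearts. In both the air group was split, with Rat720 and Rat721 low and Rat726 and Rat727 inside the exposed range. Pbk had 4.71, 3.78, 4.06 and 4.19 in exposed hearts and 2.95, 3.21, 3.31 and 4.09 in air hearts (0.79 ± 0.22; limma, adjusted p = 0.0813), and Pcna had 9.71, 9.69, 9.29 and 9.54 against 9.10, 9.13, 9.10 and 9.47 (0.36 ± 0.11; limma, adjusted p = 0.117). The differences of Mki67 and Top2a were 0.49 each, that of Rrm2 was 0.93, that of Mcm3 0.32 and that of Ccnb1 0.24.

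The same 2 air rats had the 2 lowest member medians of the 4 air rats at 1 h in all 5 solid tissues. The median over the members was 4.05 and 3.87 in the hearts of Rat720 and Rat721 against 5.06 and 5.10 in those of Rat726 and Rat727, 4.51 and 4.61 against 5.59 and 5.51 in kidney, and 4.23 and 4.76 against 5.95 and 5.92 in liver. In lung it was 5.11 and 4.76 against 5.53 and 5.38, and in brain 3.53 and 3.59 against 3.63 and 3.71, the same order with a smaller gap. In blood it was 5.0 and 5.09 against 4.87 and 5.31, without that order. Without both rats the median difference at 1 h was -0.04 in heart, -0.02 in kidney and 0.02 in liver, in place of 0.34, 0.33 and 0.60, and -0.14 in lung in place of 0.11. Against the air rats of all times pooled, it was -0.07 in heart, 0.11 in kidney, 0.36 in liver and -0.14 in lung.

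At later times the hearts had no called member and mixed signs. At 3 h 30 of 40 members lay below 0, and the smallest p belonged to Bub1 (-0.59 ± 0.20; limma, adjusted p = 0.107), Mcm7 (0.25 ± 0.10) and Cenpf (-0.37 ± 0.16). The exposed heart of Rat729 at this time carried liver transcripts, 7.89 log2 units above the median of the heart arrays. The differences of Mki67 (-0.38), Top2a (-0.27), Cdk1 (-0.02), Ccnb1 (0.31), Mcm3 (-0.46), Pcna (0.08) and Rrm2 (0.48) had no common sign. The air hearts of Cenpf differed with time, with means of 3.89, 4.86, 4.75 and 4.63 at 1, 3, 6 and 24 h (moderated F, adjusted p = 0.0269; 0.104% of all genes in heart). Cenpf was the only member called in that test, but 25 members had an unadjusted p under 0.05, against 7.81% of all genes. At 6 h 11 members had groups apart and lower, against 14.5% of all genes. Bub1 had 3.57, 4.33, 3.94 and 3.87 in exposed hearts and 4.87 and 4.80 in air hearts (-0.90 ± 0.24; limma, adjusted p = 0.115), and Rrm2 was at -0.60, Mki67 at -0.33, Cdk1 at -0.27, Top2a at -0.18, Pcna at -0.11, Mcm3 at 0.03 and Ccnb1 at 0.15.

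At 24 h 28 of 40 members lay below 0 in heart, with a median of -0.13 (-0.16 without 2 exposed hearts that carried liver or lung transcripts), and 6 had groups apart and lower, against 4.41% of all genes. Pimreg had 3.52, 3.61, 3.99 and 3.96 in exposed hearts and 4.62, 4.61, 4.62 and 4.69 in air hearts, as in lung with all exposed rats below all air rats (-0.87 ± 0.39; limma, adjusted p = 0.602). Ube2c had 5.10, 5.51, 5.49 and 5.41 in exposed hearts and 5.80, 5.94, 5.90 and 6.23 in air hearts, also apart (-0.59 ± 0.30). Cdk1 was at -0.52, Mki67 at -0.34, Ccnb1 at -0.29, Top2a at -0.15 and Pcna at -0.08, while Mcm3 (0.32) and Rrm2 (0.19) lay above 0. In heart at 6 and 24 h, 0 members were called and 4 and 2 were lower at an unadjusted p under 0.05, against 5.52% and 4.09% of all genes.

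In blood limma called 0 members at 1, 3 and 6 h, against 0.00744%, 6.60% and 0.0521% of all genes. At 3 h the members were divided, with 20 above and 20 below 0. At an unadjusted p under 0.05, 4 were lower, 10 percent of the members against 17.1% of all genes. Cenpf had 4.49, 4.28, 4.78 and 4.65 in exposed and 6.05, 5.21, 4.76 and 5.64 in air blood (-0.87 ± 0.30; limma, adjusted p = 0.0869). Bub1b, the checkpoint protein BubR1, had 3.06, 3.27, 3.17 and 3.01 in exposed and 3.83, 3.87, 3.48 and 3.65 in air blood, groups that did not overlap (-0.58 ± 0.27). Pcna had 7.79, 6.41, 7.27 and 7.53 in exposed and 8.34, 7.87, 8.08 and 8.70 in air blood, also apart (-1.0 ± 0.48; limma, adjusted p = 0.216). Mcm2 was lower on average with overlap (-0.87 ± 0.38). Mki67 was at 9.25, 8.76, 9.74 and 9.49 in exposed and 7.65, 10.11, 6.74 and 8.82 in air blood, where 1 air rat was the highest of the 8 and 1 the lowest (0.98 ± 0.52; limma, adjusted p = 0.275). Top2a was at 0.44, Mcm3 at 0.34, Rrm2 at 0.11, Cdk1 at -0.13 and Ccnb1 at -0.46. In the same comparison 5 of 7 B and plasma cell markers fell, against 5.80% of all genes called lower. The part of these markers in the members' values was not tested.

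Blood at the other times had wide spreads or no comparator. At 1 h 19 members lay above and 21 below 0, 2 were lower at an unadjusted p under 0.05 (4.44% of all genes) and none had groups apart. Mcm2 had 5.17, 6.12, 5.94 and 6.34 in exposed and 6.59, 6.99, 6.14 and 8.09 in air blood (-1.06 ± 0.38; limma, adjusted p = 0.458), followed by Racgap1 (-0.77 ± 0.37) and Nusap1 (-1.09 ± 0.59). At 6 h the single air rat sets every difference, and its spread is assumed to be that of the other blood groups, so the values are given as a description. In that fit 3 members were higher and 3 lower at an unadjusted p under 0.05, against 6.04% and 4.12% of all genes. Cdk1 had 3.31, 2.77, 3.24, 3.15 and 3.32 in exposed rats and 4.26 in the air rat, and Ccnb1 had 4.76, 4.92, 4.71, 5.73 and 5.63 against 3.72. At 24 h the 2 exposed rats had 8.33 and 7.66 for Mki67, 4.35 each for Top2a, 3.67 and 3.77 for Cdk1, 5.33 and 5.76 for Ccnb1, and 8.20 and 8.33 for Pcna.

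Kidney gave 3 calls. At 1 h Mcm4 had 5.75, 5.84, 5.94 and 5.74 in exposed kidneys and 4.83, 4.96, 5.37 and 5.68 in air kidneys, groups that did not overlap, and rose by 0.61 ± 0.16 (limma, adjusted p = 0.0342; 2.12% of all genes were called higher and 3.12% in either direction). Without Rat720 and Rat721 it was 0.29 higher and not called (limma, adjusted p = 0.565), and without the kidney array of Rat720 alone, which carried liver transcripts, 0.48 higher and not called (limma, adjusted p = 0.136). At that time 38 of 40 members lay above 0 and 16 were higher at an unadjusted p under 0.05, against 9.88% of all genes. At 3 h the spindle motor Kif11 had 7.68, 7.70, 7.50 and 7.87 in exposed kidneys and 7.05, 7.25, 7.06 and 7.15 in air kidneys. It rose by 0.55 ± 0.14 with no overlap (limma, adjusted p = 0.0164; 2.86% of all genes were called higher). Cdc20 had 5.62, 5.15, 5.76 and 5.70 in exposed kidneys and 6.22, 6.03, 6.23 and 5.88 in air kidneys, and fell by 0.53 ± 0.15 (limma, adjusted p = 0.0317; 3.53% of all genes were called lower and 6.39% in either direction). With the mean over a gene's probe sets neither was called at 3 h, with Kif11 at 0.51 (limma, adjusted p = 0.147) and Cdc20 at -0.17 (limma, adjusted p = 0.331). With the rat as a block and 1 spread for all tissues, none of the 3 was called, at differences of 0.61, 0.55 and -0.53 for Mcm4, Kif11 and Cdc20 (limma, adjusted p = 0.755, 0.814 and 0.910).

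At 6 and 24 h limma called 0 members in kidney, against 0.350% and 0% of all genes. At 24 h the members lay on the opposite side from lung, with 38 of 40 above 0, a median of 0.28 and 15 higher at an unadjusted p under 0.05, against 3.10% of all genes. Pbk had 5.25, 5.63, 5.35 and 4.66 in exposed kidneys and 4.51, 4.29, 4.43 and 4.18 in air kidneys, apart, at 0.87 ± 0.20 (limma, adjusted p = 0.486). Rrm2 was at 0.67 ± 0.22 and Cdca3, a trigger of mitotic entry, at 0.47 ± 0.17, both with overlap. At 6 h 33 members lay above 0 and 4 were higher at an unadjusted p under 0.05 (5.57% of all genes), led by Pcna (0.32 ± 0.12), Kif11 (0.46 ± 0.17) and Plk1 (0.44 ± 0.19).

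In liver the 1 call was Mcm7 at 3 h. It had 7.77, 7.58, 7.89 and 8.04 in exposed livers and 7.34, 7.36, 7.35 and 7.36 in air livers, groups that did not overlap. Mcm7 rose by 0.47 ± 0.11 (limma, adjusted p = 0.0105; 1.99% of all genes were called higher and 3.85% in either direction). Without Rat731, the exposed rat with the highest value, it was at 0.39 and narrowly not called (limma, adjusted p = 0.0509). At 1 h limma called 0 members (0.335% of all genes), while 40 of 40 lay above 0, with a median of 0.60 (0.51 without 1 exposed liver that carried muscle transcripts), and 6 were higher at an unadjusted p under 0.05, against 3.12% of all genes. Cdk1 had 7.38, 7.06, 6.17 and 7.20 in exposed livers and 4.60, 4.61, 6.99 and 6.41 in air livers at 1 h (1.30 ± 0.46; limma, adjusted p = 0.384), where the 2 low values are those of Rat720 and Rat721.

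At 6 and 24 h limma called 0 members in liver, against 0.223% and 0% of all genes. At 24 h 35 of 40 lay below 0, with a median of -0.54 (-0.75 without 1 exposed liver that carried kidney transcripts), 9 were lower at an unadjusted p under 0.05, against 4.23% of all genes, and 2 had groups apart and lower (1.95% of all genes). Birc5 had 4.81, 3.85, 4.43 and 4.55 in exposed livers and 4.95, 4.96, 5.39 and 5.94 in air livers (-0.90 ± 0.31; limma, adjusted p = 0.599). Kif2c had 4.48, 4.11, 3.86 and 3.46 in exposed livers and 4.58, 4.89, 4.90 and 5.56 in air livers (-1.01 ± 0.35). Both were apart, and the air livers were spread, with medians over the members of 6.17 and 6.30 in Rat750 and Rat751 and 5.18 and 5.0 in Rat744 and Rat745. At 6 h Mcm2 was at -0.70 ± 0.29, Mcm7 at -0.21 ± 0.13 and Bub1 at 0.52 ± 0.49, and 1 member was lower at an unadjusted p under 0.05 (4.96% of all genes).

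Brain, with the lowest member levels, had small differences. limma called 0 members at any time, against 0.149%, 0.506%, 0% and 0% of all genes, and the median differences were -0.05, 0.01, -0.04 and -0.06 at 1, 3, 6 and 24 h. At an unadjusted p under 0.05 there were 2 higher and 1 lower member at 1 h (5.20% and 5.77% of all genes), 1 and 2 at 3 h (4.38% and 4.27%), 1 higher at 6 h (2.88%) and 3 lower at 24 h (2.06%). Mki67 had 3.25, 3.24, 2.97 and 3.29 in exposed and 2.74, 3.03, 2.92 and 2.96 in air brains at 1 h (0.28 ± 0.10; limma, adjusted p = 0.268), with overlap. Prc1 had 3.87, 3.43, 3.69 and 3.96 in exposed and 4.27, 4.03, 4.30 and 4.03 in air brains at 24 h, apart, with a difference of -0.42 ± 0.12 (limma, adjusted p = 1).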

How the data were processed

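RNA of flash-frozen tissue was labelled with biotin and hybridised to 3′ rat expression arrays, per the labels' protocols. What the authors deposited is a log2 signal for each of 31139 probe sets, from 1.74 to 14.13; Partek and RMA are named in the submitters' processing notes, without versions. The 97 control probe sets, 572 with several gene symbols and 11407 with none were left out, and the brightest of the 19063 with 1 symbol stood for each of 13438 genes.

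The members and lists were chosen with earlier results of these data known. Replicates are separate rats. limma 3.58.1 in R 4.3.3 (lmFit, eBayes, 1 mean per exposure and time within a tissue, Benjamini-Hochberg over all genes) was the test, checked on simulated data; tables were read with data.table (version 1.17.8), and python 3.11.15 with numpy 2.4.6 and matplotlib 3.10.9 searched promoters and drew the plots. Effects between times were tested by moderated F, and lung against other organs with the rat as a random block.

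The genes named in lung, heart and blood were drawn from Mki67, Top2a, Cdk1, Ccnb1, Mcm3, Pcna, Rrm2 and the called members, or the 3 of smallest p. Other genes named in the lung accounts were chosen by role after their values were seen. In brain, kidney and liver they were drawn from the called members or the 3 of smallest p. All called members are named, but not every other gene of these sets at every time. Alternatives were quantile normalization, median centring, the mean of probe sets, leaving out genes under the 40th percentile, array weights, fitting only the 2 groups, pooled air, the rat block over all tissues, and each rat left out; leaving out Rat720 and Rat721, or the 9 arrays with transcripts of another organ, was added after seeing the data. Signal over background limits precision in dim genes, and the number of arrays sets it.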

Additional observations from a re-analysis of the deposited data

Results flagged for a closer look

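In 226 groups of 4 to 10 arrays examined for the genes named throughout, 8 held a rat far from the others by Dixon's criterion, and chance marks about 1 in 20 groups. In brain, Rat716 had a low Mki67 at 1 h after phosphine (2.97, next 3.24) and Rat750 a high Mcm3 at 24 h in air (3.26, next 3.07). In heart, Rat741 had a low Mki67 at 24 h after phosphine (4.56, next 4.99), in an array with liver transcripts, and Rat727 a high Pcna at 1 h in air (9.47, next 9.13). In blood at 3 h, Rat738 had a high Cdk1 in air (4.15, next 3.38) and Rat731 a high Rrm2 after phosphine (7.43, next 6.02). In lung, Rat758 had a high Ccnb1 at 6 h after phosphine (4.69, next 4.29), and in kidney Rat789 had a high Pcna at 6 h after phosphine (9.91, next 9.74).

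Tests of a difference between times or tissues were passed in lung. The effect of phosphine differed between times for 8 members (limma, moderated F), and that of Pimreg at 3 h was lower in lung than in the other solid tissues on average, by -1.07 (limma, adjusted p = 0.0180). Pimreg was dim in air brain, kidney and liver, where a fall has little room to show.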

How the results depend on the processing

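No called value reversed its sign under any alternative run, though the members' median at 1 h changed sign in lung, heart and kidney without Rat720 and Rat721. With air of all times pooled that median changed sign in lung and heart, and the lung median at 6 h went from 0.16 to -4.6e-04. Of the single-gene values 1995 kept direction and side of the threshold, 54 lost it, 34 gained it and 56 moved. Counts below are members called by limma unless stated, and the cause of a change was not tested. With genes under the 40th percentile left out, 14 members had groups apart and lower in lung at 24 h, of fewer genes tested, and 2 were called in kidney at 1 h (397 of the genes kept). With the mean of probe sets, 0 were called in kidney at 3 h (877 of all genes). With array weights, 2, 12 and 2 were called in lung at 1, 3 and 24 h (882, 2142 and 8 of all genes). These weights gave 2 and 1 in heart at 1 and 6 h (277 and 560 of all genes) and 0 in kidney at 1 h (243). The effect then differed between times for 17 in lung and 1 in heart (1301 and 380 of all genes). Between lung and other organs it differed for 5 at 3 h and 1 at 24 h (1463 and 11 of all genes). With only the 2 groups in the fit, 0, 9 and 8 were called in lung at 1, 3 and 24 h (132, 1293 and 11 of all genes). That fit called 0 and 1 in kidney at 1 and 3 h (39 and 463 of all genes), and 0 in liver at 3 h (260). With air of all times pooled, 2 were called in lung at 1 h and 0 at 3 h (1831 and 1464 of all genes). Pooled air left 0 with groups apart in lung at 3 h and 0 at 24 h, and 0 and 2 called in kidney at 1 and 6 h (530 and 1676 of all genes).

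Exposed and air rats share no number in the labels, and no exposure day or batch is given there, so no pairing within a comparison could be fitted; the replicate block ties the organs of 1 rat. With the rat as a replicate block (correlation 0.02) and 1 spread for all tissues, 0, 2 and 1 members were called in lung at 1, 3 and 24 h. Of 13438 genes, 147, 395 and 3 were called there. In blood 4 and 10 members were called at 1 and 3 h, against 2760 and 5559 of 13438 genes. Blood at 6 h, with 1 air rat, is not counted here. In kidney 0 each were called at 1 and 3 h (49 and 88 of all genes), and in liver 2 and 4 at 1 and 24 h (99 and 82 of all genes).

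Without Rat720 and Rat721, 0 were called in lung and 0 in kidney at 1 h (325 and 80 of all genes). Then 4 differed between times in lung (705 of all genes) and 1 between lung and other organs at 24 h (5). Without the arrays that carried another organ's transcripts, 2 were called in lung and 0 in kidney at 1 h (680 and 245 of all genes), and 14 differed between times in lung. With 1 rat left out, counts ran from 1 to 2 in lung at 1 h (2 without Rat716), from 1 to 4 in lung at 3 h (1 without Rat739), from 15 to 23 for groups apart in lung at 3 h, from 24 to 28 for groups apart at 24 h, from 0 to 4 in heart at 1 h (4 without Rat727), from 0 to 1 in heart at 3 h (1 without Rat728), from 0 to 4 in kidney at 1 h (4 without Rat726 or Rat727), from 1 to 2 in kidney at 3 h and from 0 to 1 in liver at 3 h (0 without Rat731). Leaving out rats can only keep or raise a count of groups apart, and adding air rats can only keep or lower it. The count that differed between times ran from 4 to 17 in lung (4 without Rat762 or Rat763, 17 without Rat716) and from 0 to 2 in heart (2 without Rat727), and the count against other organs at 3 h from 0 to 1. The median difference of the members in lung ran from -0.58 to -0.39 at 24 h and from -0.44 to -0.16 at 3 h over all settings.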
